A study of Mus musculus with 4 samples.

Results

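Retinoid metabolism was followed through 9 genes, Rbp4, Stra6, Retsat, Aldh1a1, Aldh1a2, Aldh1a3, Crabp1, Crabp2 and Cyp26b1, of the 32285 genes counted in a spatial transcriptome of mouse brain. The 9 genes were selected on their levels in these same data, by slice, at the tissue edge against the interior, and in spots rich in Col1a1 against spots free of it. Those contrasts are therefore given for the 9 genes as descriptions, with no test. Cortical sections were placed on Visium slides, whose barcoded spots each take up RNA from a small region that can hold several cells. Unique molecular identifiers (UMIs) count captured RNA molecules, and levels are UMIs of a gene per 10000 UMIs of all genes in the same spots.

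The wild-type (WT) mice carried a photothrombotic (PT) injury, in which light-induced clotting kills a patch of cortex, or were at rest. There was 1 slice at rest, 1 at 2 days post-injury (dpi), 2 at 7 dpi and 2 at 21 dpi, each from its own mouse, and all mice were adults per the study's methods. A further 2 slices at 21 dpi came from injured Cthrc1(creER); R26(DTA) mice, called deleter mice here, in which tamoxifen-activated Cre driven from Cthrc1 is meant to kill myofibroblasts with diphtheria toxin. The submitters set these mice aside because no deletion was detectable. Each of the 4 capture areas held 2 slices, so time and genotype cannot be told apart from capture area, except that rest and 2 dpi shared an area. The labels do not say which slice of that area was at rest. The smaller piece was taken as rest and the larger as 2 dpi from their outlines in the study's published maps.

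Vitamin A reaches cells as retinol, which Rbp4 carries in blood and Stra6 admits at the cell surface. Retinol is oxidised to retinal and then, by the Aldh1a enzymes, to retinoic acid, which cellular binding proteins such as Crabp1 and Crabp2 carry to nuclear receptors or to breakdown by Cyp26 enzymes. The meninges, the membranes that cover the brain, are known as a source of retinoic acid during cortical development.

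The 8 slices held 827 to 1726 spots and 11332780 to 23677298 UMIs. The median spot held 12447 to 16158 UMIs, except at 2 dpi, where it held 2633.5 and 375 spots had under 1000. Edge spots, those with a neighbouring array position off the tissue, numbered 80 to 182 per slice and include cut faces. Spots with at least 5 Col1a1 UMIs per 10000, called Col1a1-rich, numbered 112 to 392 in each 7 and 21 dpi slice, deleter slices included, against 3 at rest and 26 at 2 dpi. Both 7 dpi mice had Xist (1597 and 1281 UMIs) and both wild-type 21 dpi mice had Ddx3y (1195 and 805 UMIs), so sex also separated these times. The slices held different brain regions: spots with choroid plexus markers numbered 243 at 2 dpi, 118 in 21 dpi slice 1, 87 in 7 dpi slice 1 and 83 in deleter slice 2, against 14 to 28 in the others. In the shallow spots at 2 dpi, 1 UMI could be enough to reach the limit for choroid plexus markers or for Col1a1. The counts of such spots at 2 dpi are thus less certain. Spot barcodes are fixed positions of the array, and 2587 of them occurred in more than 1 area.

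**Figure D1:**
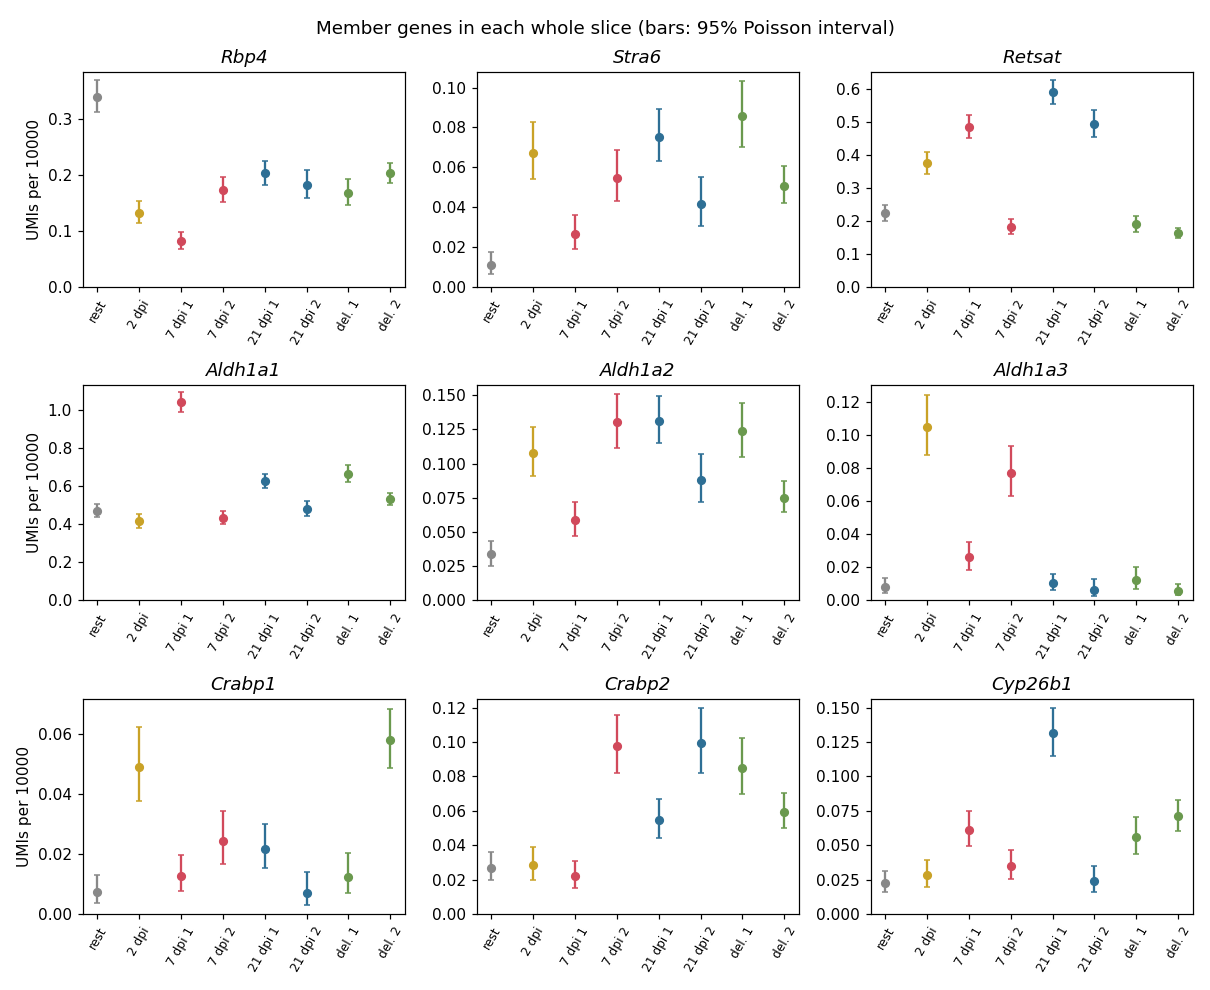
Level of each gene in each whole slice, in UMIs per 10000, with exact 95% Poisson intervals that cover counting error only. Aldh1a3 was highest at 2 dpi (0.105), Retsat in 21 dpi slice 1 (0.591) and Aldh1a1 in 7 dpi slice 1 (1.04).

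In the mm10 annotation Aldh1a2, Stra6 and Crabp1 lie on chromosome 9, Aldh1a1 and Rbp4 on chromosome 19, Cyp26b1 and Retsat on chromosome 6, Aldh1a3 on chromosome 7 and Crabp2 on chromosome 3. Aldh1a2 spans chr9:71215789-71296243 and Stra6 chr9:58063788-58153996, both on the plus strand. Promoter sequence is shown for Aldh1a2 and Stra6, which were both high in Col1a1-rich spots. RefSeq entries on GRCm38.p6, the assembly also called mm10, were matched for 7 of the 9 genes, and Aldh1a3 and Crabp2 are named only. Each sequence is the 250 bases before an annotated start, on the coding strand, chr9:71215539-71215788 for Aldh1a2 and chr9:58128838-58129087 for Stra6, both on the plus strand, and capitals mark CCAAT.
Aldh1a2: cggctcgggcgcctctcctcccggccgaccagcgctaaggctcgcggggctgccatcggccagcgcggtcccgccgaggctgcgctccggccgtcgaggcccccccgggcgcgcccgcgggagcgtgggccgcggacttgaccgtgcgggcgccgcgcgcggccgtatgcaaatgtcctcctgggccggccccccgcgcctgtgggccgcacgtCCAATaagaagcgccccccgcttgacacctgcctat
Stra6: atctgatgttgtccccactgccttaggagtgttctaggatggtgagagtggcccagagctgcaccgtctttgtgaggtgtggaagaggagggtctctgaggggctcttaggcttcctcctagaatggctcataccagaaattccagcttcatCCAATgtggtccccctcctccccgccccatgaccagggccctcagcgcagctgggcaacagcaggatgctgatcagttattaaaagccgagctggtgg
CCAAT, searched on both strands, stood once in each of these windows and in 33.8% of the 32851 promoters of the table. It also stood in a window of Aldh1a1 and in one of Rbp4, which was lower in Col1a1-rich spots. AGGTCA, a half-site that retinoic acid receptors can bind, was in no window of the 7 genes and in 14.02% of all promoters. These are matches of letters and not sites shown to be used. The other Stra6 starts in the table had no CCAAT.

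Rbp4, the blood carrier of retinol, was lower in Col1a1-rich than in Col1a1-free spots of every 7 and 21 dpi slice. Its level was 0.0590 against 0.0816 and 0.0774 against 0.243 in 7 dpi slices 1 and 2, and 0.116 against 0.242 and 0.0491 against 0.276 in 21 dpi slices 1 and 2. The deleter slices gave 0.0506 against 0.231 and 0.0606 against 0.222. The smallest gap was in 7 dpi slice 1, where only 5 UMIs fell in Col1a1-rich spots. Near the Col1a1 limit the order turned in 21 dpi slice 1. There, spots at 4 to 5 and 5 to 6 Col1a1 UMIs per 10000 had 0.727 and 0.577, from 22 and 10 UMIs, above its Col1a1-free level. In the other 7 and 21 dpi slices both of these classes lay below the Col1a1-free level. Over the 4 wild-type slices the means were 0.0754 ± 0.0296 and 0.211 ± 0.0873 (SD, n = 4). Neuronal markers moved the same way: the summed level of 4 neuron markers was 6.37 to 9.53 in Col1a1-rich and 23.8 to 51.1 in Col1a1-free spots of the same 4 slices, and their part in the result was not tested. In bulk spots, fewer cells of a type and less RNA per cell cannot be told apart. At rest, spots holding an Rbp4 UMI had 5.56 UMIs of Sst, the peptide somatostatin of inhibitory neurons, per 10000, against 2.86 in the other spots outside choroid plexus. The same held in both 7 dpi slices, at 3.26 against 0.907 and 5.07 against 1.60. Sst was picked after the values were seen. Whole-slice Rbp4 was highest at rest (0.340), lowest in 7 dpi slice 1 (0.0819), and between 0.133 and 0.203 elsewhere.

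Stra6, the membrane receptor that admits retinol, was higher in Col1a1-rich spots of every 7 and 21 dpi slice. At 7 dpi it was 0.106 against 0.0225 in slice 1 and 0.150 against 0.00256 in slice 2. At 21 dpi it was 0.264 against 0.0304 in slice 1 and 0.116 against 0.00908 in slice 2. Deleter slices 1 and 2 had 0.257 against 0.0145 and 0.171 against 0.0178. The Col1a1-free values of 7 dpi slice 2 and 21 dpi slice 2 rest on 1 and 3 UMIs. Interior spots kept this order in all these slices. Among edge spots it turned in 21 dpi slice 1, at 0.101 from 5 UMIs against 0.235 from 6. It also turned in deleter slice 2, at 0.166 against 0.211, the latter from 1 UMI. Edge spots of 21 dpi slice 2 had 0 in both classes. The wild-type means differed 9.86-fold. In this comparison edgeR called 28.9% of all 14147 genes higher in Col1a1-rich spots, and since the 9 genes were selected on it nothing is read from their share. Choroid plexus, the secretory tissue of the ventricles, was a separate place of high Stra6: 47 of the 88 UMIs at 2 dpi and 48 of the 132 in 21 dpi slice 1 lay in choroid plexus spots. There the level was 0.182 (95% interval 0.134 to 0.242) and 0.262 (0.193 to 0.347), against 0.0390 and 0.0536 outside them. At the edge Stra6 exceeded the interior in 7 of 8 slices, the exception being 21 dpi slice 2 at 0.0128 against 0.0436. Edge counts were low in places, at 6 UMIs at rest, 9 in each 7 dpi slice and 1 in 21 dpi slice 2. In both 7 dpi slices the 95% intervals overlapped, at 0.0535 (0.0245 to 0.102) against 0.0232 (0.0158 to 0.0330) and 0.0859 (0.0393 to 0.163) against 0.0521 (0.0402 to 0.0665). They overlapped too in 21 dpi slice 2, at 0.000323 to 0.0711 against 0.0319 to 0.0582. In 21 dpi slice 1 choroid plexus markers summed to 9.06 at the edge against 1.13 in the interior. Their part in its edge level was not tested.

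Retsat, retinol saturase, differed more between slices than between spot classes. Whole-slice levels were 0.223 at rest, 0.376 at 2 dpi, 0.486 and 0.182 at 7 dpi, 0.591 and 0.494 at 21 dpi, and 0.190 and 0.163 in the deleter slices. The 7 dpi pair alone spanned most of this range, and its lower slice lay between the deleter slices. In Col1a1-rich against Col1a1-free spots it was 0.706 against 0.404 and 0.655 against 0.257 at 21 dpi, and 0.342 against 0.502 and 0.212 against 0.161 at 7 dpi. The 21 dpi level did not rise steadily with Col1a1. Spots at 4 to 5 Col1a1 UMIs per 10000, just outside the limit, had 1.06 and 1.11, and those at 10 or more had 0.513 and 0.490. Spots with a Retsat UMI in 21 dpi slice 1 had 9.18 UMIs of Lcn2, an acute-phase iron carrier, per 10000 against 1.35 in the others, and 4.62 against 0.687 in slice 2. Lcn2 was picked after the values were seen.

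Aldh1a1, the first of the retinoic acid-forming enzymes, was 0.469 at rest, 0.416 at 2 dpi, 1.04 and 0.433 at 7 dpi, 0.627 and 0.481 at 21 dpi, and 0.665 and 0.530 in the deleter slices. Edge spots exceeded the interior in 6 of 8 slices, at 1.03 against 0.445 at rest and 0.735 against 0.408 in 7 dpi slice 2. The deleter slices had 0.924 against 0.650 and 0.850 against 0.518. The gap was smaller at 2 dpi, at 0.527 against 0.410, and in 21 dpi slice 2, at 0.511 against 0.479. In 21 dpi slice 1 the edge was slightly lower, at 0.601 against 0.629. One slice stood out, 7 dpi slice 1, whose interior held 1.12 against 0.434 at its edge. Spots with an Aldh1a1 UMI there had 0.613 UMIs of Slc17a6, a glutamate transporter, against 0.0992 in the rest, and 1.03 of Tcf7l2, a transcription factor abundant in thalamus, against 0.295. Both were picked after the values were seen. At 21 dpi Aldh1a1 was 1.16 against 0.488 and 0.624 against 0.378 in Col1a1-rich against Col1a1-free spots, and in the deleter slices 1.03 against 0.475 and 0.818 against 0.415. At 7 dpi it was 0.437 against 1.13 and 0.455 against 0.407. Reads of its near copy Aldh1a7, counted at 3 to 13 UMIs per slice, may not be separable from it.

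Aldh1a2, known as the main retinoic acid-forming enzyme of the meninges, was higher at the edge than in the interior of every slice, and 27.2% of its UMIs lay in edge spots. Edge against interior levels were 0.352 against 0.0198 at rest and 1.14 against 0.0523 at 2 dpi. They were 0.113 against 0.0517 and 0.430 against 0.105 at 7 dpi, 0.165 against 0.129 and 0.357 against 0.0683 at 21 dpi, and 0.587 against 0.0977 and 0.574 against 0.0553 in the deleter slices. Of all 15359 genes tested, 4.22% were called higher at the edge. The ratio of edge to interior was widest at 2 dpi and narrowest in 21 dpi slice 1. Markers of the meninges were also higher at the edge. Those of arachnoid and pia summed to 111 at the edge against 8.36 in the interior at rest and 40.1 against 12.9 at 2 dpi. In the 6 other slices they summed to 14.7 to 167 against 10.8 to 31.6. They were nearly level in 7 dpi slice 1, at 14.7 against 12.5. Unlike that of Aldh1a2, their ratio of edge to interior was narrower at 2 dpi than at rest. Fibroblast markers summed to 3.37 against 0.309 at rest and 7.96 against 0.817 at 2 dpi, and dural markers to 5.15 against 0.331 and 5.90 against 1.09. Both sums were higher at the edge of every other slice as well. The part of these in the edge levels was not tested. In Col1a1-rich against Col1a1-free spots it was 0.236 against 0.0239 and 0.287 against 0.0359 at 7 dpi, 0.510 against 0.0462 and 0.189 against 0.0273 at 21 dpi, and 0.420 against 0.0193 and 0.336 against 0.00941 in the deleter slices. Of all 14147 genes tested, edgeR called 28.9% higher in Col1a1-rich spots. The wild-type means of Aldh1a2, 0.305 ± 0.142 and 0.0333 ± 0.00996 (SD, n = 4), differed 9.17-fold. The same order held away from the edge: interior Col1a1-rich spots had 0.166 to 0.563 and interior Col1a1-free spots 0.0213 to 0.0451 in these 4 slices. Just outside and inside the Col1a1 limit, at 4 to 5 and 5 to 6 UMIs per 10000, it was 0.0556 and 0.394, and 0.132 and 0.238, in the 7 dpi slices, 0.364 and 0.519, and 0.218 and 0.0760, in the 21 dpi slices, and 0.116 and 0.235, and 0.0741 and 0.0869, in the deleter slices. These rest on 1 to 11 UMIs each, and the order turned in 21 dpi slice 2. In all, 49.7% of its 1127 UMIs lay in Col1a1-rich spots, which held 13.5% of all UMIs.

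**Figure D2:**
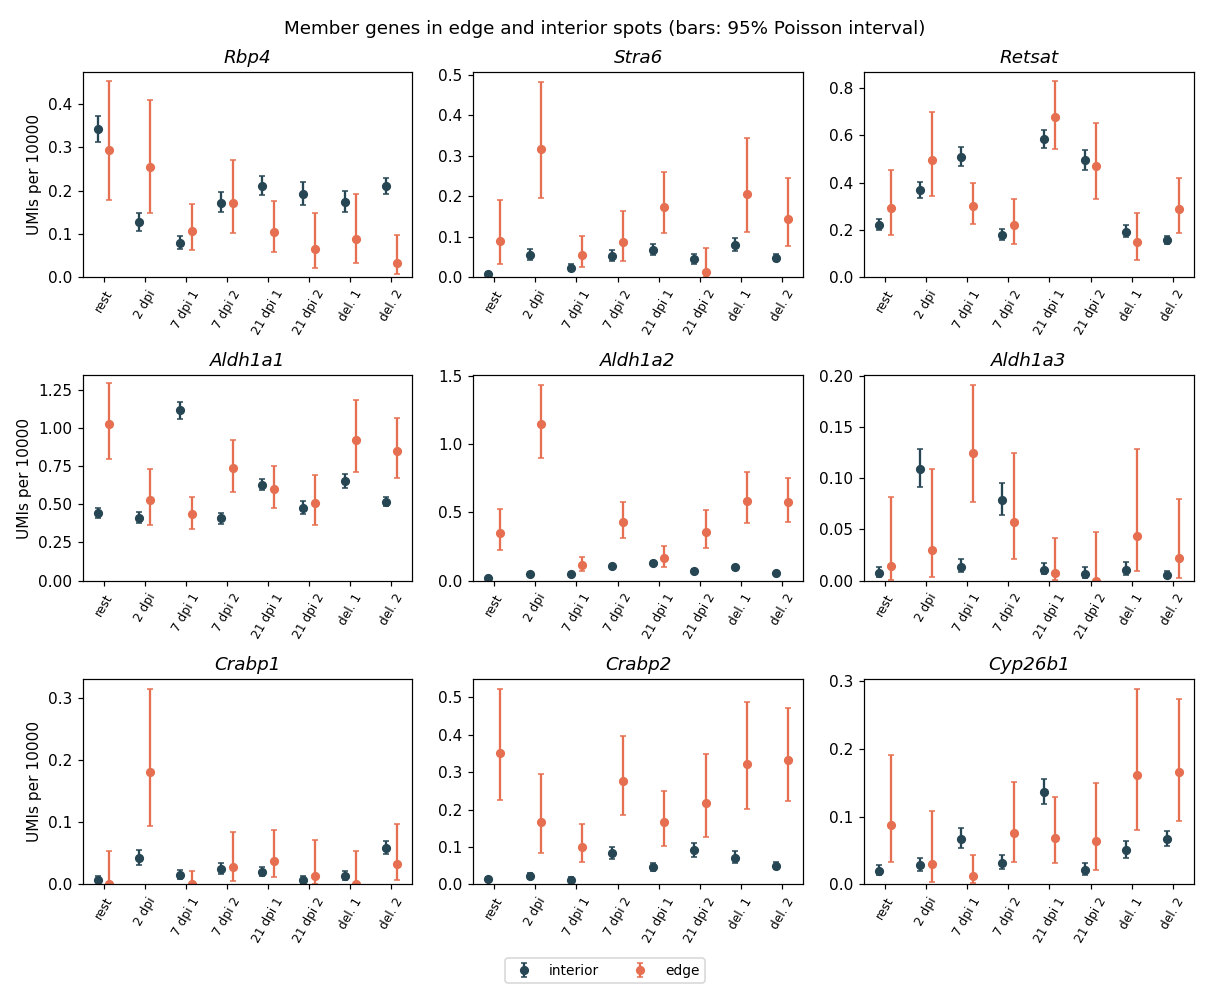
Level of each gene in edge and interior spots of the 8 slices, in UMIs per 10000, with 95% Poisson intervals. Aldh1a2 and Crabp2 were higher at the edge in all 8 slices, whereas Rbp4 was so in 2.

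**Figure D3:**
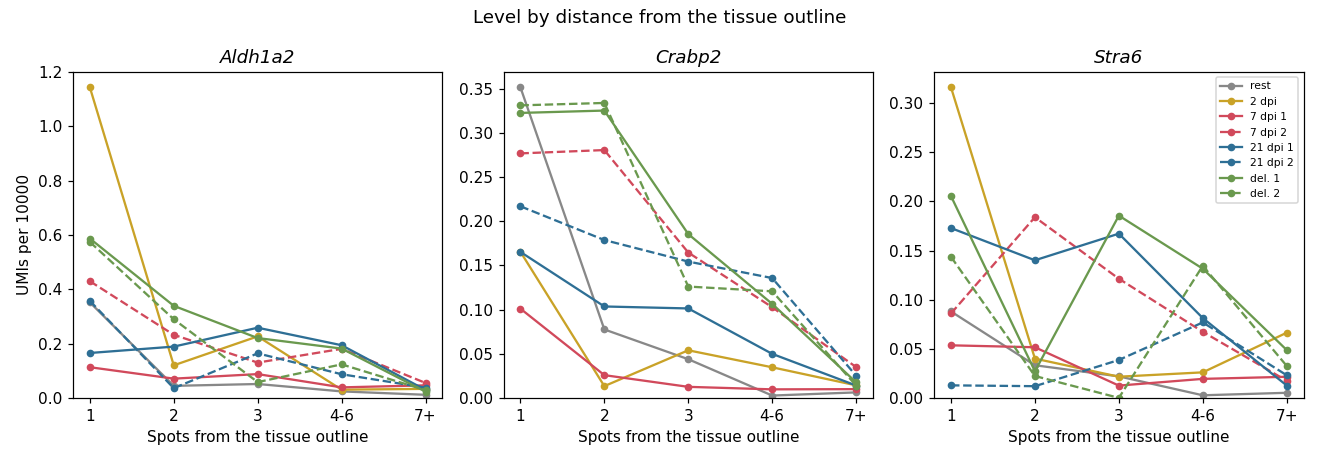
Levels of Aldh1a2, Crabp2 and Stra6 by number of spots from the tissue outline, 1 line per slice, in UMIs per 10000. Aldh1a2 at 2 dpi dropped from 1.14 in the outermost spots to 0.120 in the next, while in 21 dpi slice 1 it was 0.165 and 0.189.

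Aldh1a3, the third enzyme, was highest at 2 and 7 dpi. Whole-slice levels were 0.00795 at rest, 0.105 at 2 dpi, 0.0260 and 0.0770 at 7 dpi, 0.0103 and 0.00618 at 21 dpi, and 0.0124 and 0.00591 in the deleter slices. Counts were 39 and 104 UMIs at 7 dpi and 18 and 7 at 21 dpi. At 7 dpi it was 0.260 against 0.00422 and 0.214 against 0.00512 in Col1a1-rich against Col1a1-free spots, while at 21 dpi it was 0.00894 against 0.00528 and 0.00701 against 0.0121, from 2 UMIs in the Col1a1-rich spots of each slice. At 2 dpi the interior Col1a1-free spots already had 0.111, and spots with an Aldh1a3 UMI had 1.78 UMIs of Tnc, a matrix glycoprotein of injured tissue, against 0.332. Tnc was picked after the values were seen. In interior Col1a1-free spots alone, the log2 ratio of 7 over 21 dpi was -0.50, against 1.75 over whole slices. Over all Col1a1-free spots of these slices the levels were 0.00422 to 0.0121, near or below the pseudocount of 0.01 used in the ratio. The sign of the -0.50 is therefore not read.

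**Figure D4:**
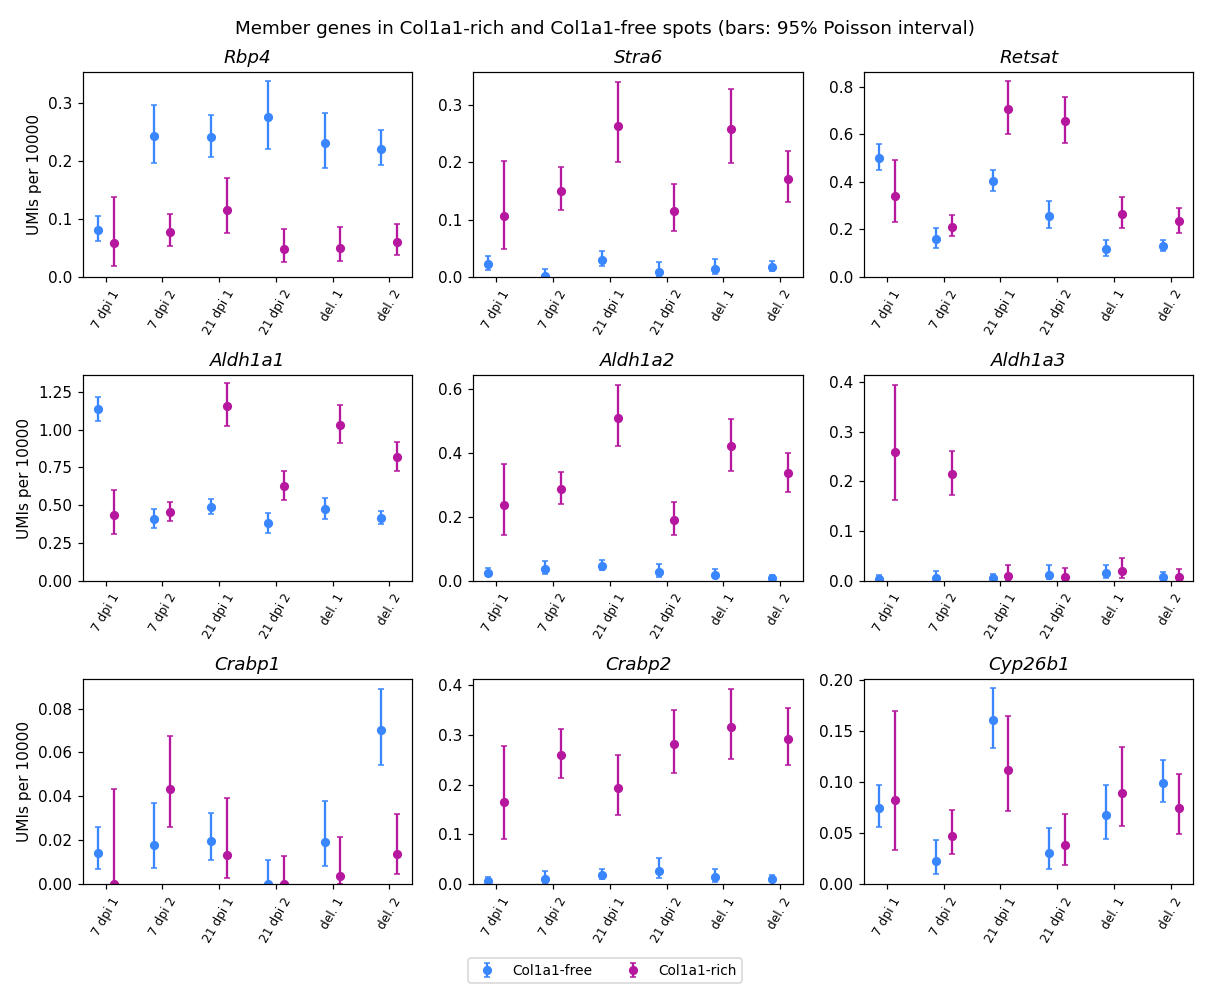
Level of each gene in Col1a1-rich and Col1a1-free spots of the 6 slices at 7 and 21 dpi, in UMIs per 10000, with 95% Poisson intervals. Stra6, Aldh1a2 and Crabp2 were higher in Col1a1-rich spots of all 6 slices and Aldh1a3 at 7 dpi.

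Crabp2, which delivers retinoic acid to its receptors, was like Aldh1a2 higher in Col1a1-rich spots and at the edge. The order of the slices differed between these genes. In Col1a1-rich against Col1a1-free spots it was 0.165 against 0.00563 and 0.259 against 0.0102 at 7 dpi, 0.192 against 0.0185 and 0.280 against 0.0273 at 21 dpi, and 0.315 against 0.0145 and 0.292 against 0.0105 in the deleter slices. The wild-type means differed 14.6-fold, in a comparison where edgeR called 28.9% of all 14147 genes higher in Col1a1-rich spots. Edge spots exceeded the interior in all 8 slices, by 0.352 against 0.0128 at rest and 0.101 against 0.0120 in 7 dpi slice 1, for example. The log2 ratio of edge over interior ran from 1.17 to 3.99 over the 6 wild-type slices. Over 35 sums of spots by slice, edge and Col1a1 class, the genes most like it were Gjb2, Thbd and Fam180a (Pearson r 0.93 each). Those most like Aldh1a2 were Prg4 (r 0.93), Bmp7 and Myl9 (0.89 each), and those most like Stra6 included Lsr (0.88) and Il6ra (0.84). These are correlations over sums that share slices and depth, given as descriptions. In the 4 wild-type slices the fibroblast markers summed to 33.2 to 90.8 in Col1a1-rich and 0.774 to 0.978 in Col1a1-free spots. Col1a1 is itself among these markers, so part of that gap was fixed by how the spots were classed. Macrophage markers summed to 34.6 to 75.0 and 1.27 to 6.80. The part of these markers in the result was not tested.

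Crabp1, the related binding protein, was sparse, with 327 UMIs in all and 137 of them in deleter slice 2. Whole-slice levels ran from 0.00706 in 21 dpi slice 2 to 0.0579 in deleter slice 2, with 0.0489 at 2 dpi. In Col1a1-rich against Col1a1-free spots it was 0 against 0.0141 and 0.0432 against 0.0179 at 7 dpi, 0.0134 against 0.0198 and 0 against 0 at 21 dpi, and 0.00389 against 0.0193 and 0.0138 against 0.0701 in the deleter slices. Col1a1-rich spots were thus higher in 7 dpi slice 2, lower in 4 slices, and at 0 with Col1a1-free spots in 21 dpi slice 2.

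Cyp26b1, which breaks down retinoic acid, had near-equal wild-type means in Col1a1-rich and Col1a1-free spots, at 0.0702 ± 0.0336 and 0.0722 ± 0.0634 (SD, n = 4). It was higher in Col1a1-rich spots of 4 of the 6 slices at 7 and 21 dpi and lower in 21 dpi slice 1 and deleter slice 2. In 7 dpi slice 1 the gap was 0.0827, from 7 UMIs, against 0.0746. Whole-slice levels were 0.0226 at rest, 0.0283 at 2 dpi, 0.0613 and 0.0348 at 7 dpi, 0.131 and 0.0238 at 21 dpi, and 0.0560 and 0.0710 in the deleter slices. The high slice was 21 dpi slice 1, where Col1a1-free spots had 0.161 and Col1a1-rich spots 0.112. Spots with a Cyp26b1 UMI there had 0.605 UMIs of Npy2r, a neuropeptide Y receptor, against 0.120 in the others, and in deleter slice 2 they had 0.639 against 0.0998. Npy2r was picked after the values were seen.

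Deleter and wild-type slices at 21 dpi are set side by side from the levels by slice on which the 9 genes were selected, so no test is given for them. Retsat, at 0.591 and 0.494 in wild-type and 0.190 and 0.163 in deleter slices, had a log2 fold change of -1.55. Crabp1 had a log2 fold change of 1.35, which without deleter slice 2 was -0.20. For the other 7 genes it lay between -0.25 and 0.25 over whole slices. Over all 15708 genes edgeR called 0 at an adjusted p under 0.05 (0%), with 529 at an unadjusted p under 0.05, and DESeq2 called 12. Genotype and capture area cannot be told apart here. Deleter slice 1 had Xist (1033 UMIs) and deleter slice 2 had Ddx3y (1323 UMIs), whereas both wild-type slices had Ddx3y.

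The rest of the pathway was read from 45 other retinoid genes, of which 27 passed the count filter for Col1a1-rich against Col1a1-free spots in 7 and 21 dpi slices. Of these, 14 were higher in Col1a1-rich spots and 0 lower (edgeR adjusted p under 0.05), beside 28.9% of all 14147 genes tested that were higher and 27.9% that were lower. The median log2 fold change of the 27 was 0.88. Without the count filter, 14 of 43 were higher and 0 lower, beside 3925 of 21379 genes higher and 4186 lower. Macrophage markers were higher in Col1a1-rich spots too, as were fibroblast markers, which include Col1a1 itself. The part of these markers in the calls was not tested. Dhrs3, which turns retinal back to retinol, had a log2 fold change of 2.35 (SE 0.229) and Rdh10, which makes retinal from retinol, one of 0.94 (SE 0.188), and both passed the test. Among receptors, Rarg (1.79), Rxra (1.72) and Rara (0.88) passed the test, while Rarb had 0.70 (edgeR adjusted p = 0.0556) and Rxrg -0.62 (0.420). Dhrs9 had the greatest log2 fold change, 4.66, from only 62 UMIs over both classes, followed by Stra6l (3.68). Genes this sparse can pass the count filter through the class where they are high alone, so their rank is uncertain. Tgm2, a transglutaminase known as a retinoic acid target, had 2.97 and Cd38 had 2.77. Of other known targets, Rarres2 (1.37) and Dhrs3 passed the test, while Nrip1 (0.10, edgeR adjusted p = 0.4965) and Rarb did not. Ttr, the partner of Rbp4 in blood, had -0.76 (SE 1.31) and moved with the choroid plexus spots. The Col1a1 contrast differed between 7 and 21 dpi for 2 of the 27, Rarres2 and Stra6l, by an edgeR interaction term at an adjusted p under 0.05, beside 4.01% of all 14147 genes.

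**Figure D5:**
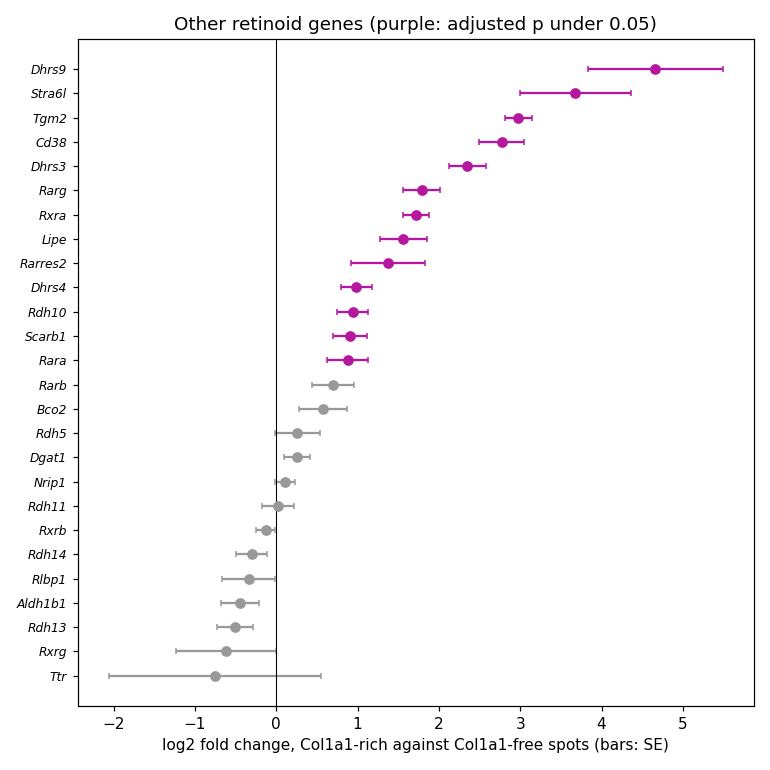
Log2 fold change of 26 of the other retinoid genes, Col1a1-rich against Col1a1-free spots, with SE bars. The 13 purple genes passed the edgeR test and all lie above 0, from 0.88 for Rara to 4.66 for Dhrs9.

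At the edge against the interior of the 6 wild-type slices, 1 of 31 other retinoid genes was called by edgeR, beside 4.22% of 15359 genes higher at the edge and 1.58% lower. Without 7 dpi slice 2, 0 were called. Between 7 and 21 dpi none of 31 was called by edgeR (0.0382% of 15727 genes were), 4 had an unadjusted p under 0.05 and DESeq2 called 1. Deleter against wild type gave 0 calls of 30 by edgeR and 0 by DESeq2, with 2 at an unadjusted p under 0.05. Cyp26a1, the paralogue of Cyp26b1, had 0 to 4 UMIs in a slice, and Lrat, which stores retinol as esters, 0 to 6.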

How the data were processed

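Per the labels, fresh frozen brain sections were profiled with Visium, and the submitters' processing notes name Space Ranger 2.0.0 and mm10. The deposited counts are UMI counts per gene and spot, unnormalized, made by the authors. Only tissue spots were read. Each capture area was split into its 2 connected pieces of spots. UMIs were summed over spots of a class within a slice, so slices and not spots were the replicates. Tests used edgeR 4.0.16 (TMM, filterByExpr, quasi-likelihood, Benjamini-Hochberg over all genes) in R 4.3.3, with slice as a block for Col1a1 and edge classes. They were also run on simulated counts with the same dispersion for all genes and no slice effect. Those runs do not cover the differences between real slices. SE is the absolute log2 fold change over the root of F. Alternatives used DESeq2 1.42.0, other filters, scalings and spot classes, and left out each slice. Choroid plexus spots had at least 2 UMIs of 4 markers (Kcnj13, Folr1, Clic6, Prlr) per 10000, a choice made after seeing the data. Level ratios used a pseudocount of 0.01. The members and gene lists were chosen with earlier results of these data known. Named were the 9 genes, up to 5 called other genes per direction with at least 50 UMIs, and a fixed set of pathway genes. The 3 genes most like each member with at least 200 UMIs were found, and are named for Crabp2, Aldh1a2 and Stra6. Among the other members the highest r ran from 0.63 (Crabp1, with Smg5) to 0.90 (Rbp4, with Satb1). The results of 1 gene of the list are not reported here. Intervals are exact Poisson and cover counting error only.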

Additional observations from a re-analysis of the deposited data

Results flagged for a closer look

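Of 27 other retinoid genes, 2 differed in their Col1a1 contrast between 7 and 21 dpi by an edgeR interaction term, beside 4.01% of all 14147 genes. Rarres2, the chemerin precursor, had an interaction of -1.96 on the log2 scale (7 dpi minus 21 dpi, edgeR adjusted p = 0.0298), with Col1a1-rich against Col1a1-free levels of 0.295 against 0.408 and 0.319 against 0.187 at 7 dpi and 1.06 against 0.296 and 1.01 against 0.151 at 21 dpi. Stra6l had -4.01 (edgeR adjusted p = 0.0349), with 14 and 10 UMIs in the Col1a1-free spots at 7 dpi and 1 in each slice at 21 dpi. Times lie on separate capture areas and in mice of different sex, and the part of these was not tested.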

How the results depend on the processing

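Counts for Col1a1-rich against Col1a1-free spots stayed within 1.5 times of 8029 genes, and of 14 other retinoid genes, under all 14 alternatives. At the edge, 891 genes became 1481 with DESeq2, 1486 without the filter, 1982 without choroid plexus spots, 62 with no slice block, 3427 with deleter slices and 5 in spots without Col1a1; leaving out a slice gave 249 (7 dpi slice 2) to 1774 (7 dpi slice 1), with 413 and 447 without 21 dpi slices 1 and 2 and 532 without rest. The 1 other retinoid gene there became 4 with DESeq2, 2 without the filter, 5 without choroid plexus spots, 4 with an edge of 2 spots, 0 with no block, 9 with deleter slices and 0 in spots without Col1a1, and 0 to 3 on leaving out a slice. Between 7 and 21 dpi, 6 genes became 398 with DESeq2, 267 without the filter, 17 without choroid plexus spots, 339 in interior Col1a1-free spots and 503 in Col1a1-rich spots, and 7 to 335 on leaving out a slice (335 without 7 dpi slice 1, 39 without 7 dpi slice 2); the 0 other retinoid genes became 1 with DESeq2, without the filter and in Col1a1-rich spots, and 0 to 2 on leaving out a slice. For deleter against wild type, 0 genes became 12 with DESeq2, 40 without the filter and 1 in Col1a1-rich spots, and 0 to 3 on leaving out a slice. The causes were not tested.

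The deleter log2 fold changes of members near 0 changed sign: Aldh1a2 to 0.15, Cyp26b1 to 0.17, Crabp2 to 0.35 and Rbp4 to -0.50 in Col1a1-rich spots, Crabp2 to 0.10 without choroid plexus spots, and Rbp4 to -0.049 with library size alone and -0.11 in interior Col1a1-free spots. Leaving out a slice gave -0.0014 to 0.41 for Aldh1a1, -0.48 to 0.25 for Aldh1a2, -0.43 to 0.62 for Aldh1a3, -0.20 to 2.46 for Crabp1, -0.38 to 0.45 for Crabp2, -0.97 to 1.52 for Cyp26b1, -0.12 to 0.16 for Rbp4 and -0.15 to 0.79 for Stra6; Retsat stayed between -1.68 and -1.39. With 1 slice left in an arm, it was assumed to vary like the others. In interior Col1a1-free spots it was -1.36 for Aldh1a2, from 57 UMIs, and 2.04 for Crabp1. Low UMI counts limit Aldh1a3, Crabp1 and Col1a1-rich spots at rest and 2 dpi. Slice was the replicate block for the Col1a1 and edge classes, and the labels give no numbers that pair slices across times or genotypes.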
